A study of Mus musculus with 15 samples.

Results

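The proteasome genes described here were the 45 protein-coding genes, of 21976 protein-coding and 55421 genes in all in the count tables, whose mouse symbol begins with Psma, Psmb, Psmc, Psmd or Psme followed by a digit. They encode the alpha and beta subunits of the 20S core (Psma and Psmb), the ATPases and the other subunits of the 19S cap (Psmc and Psmd) and the activators of the 11S and PA200 type (Psme). One symbol in the set, Psmc3ip, names a partner protein of recombination and not a proteasome subunit. Another, Psme2b, is a near copy of Psme2 with no role assigned here. Psmd5, Psmd9 and Psmd10 encode chaperones that help to assemble the base of the 19S cap. Of the 45 genes, 43 passed edgeR's filter on low counts in every comparison. The 2 that did not were Psma8, the testis form of an alpha subunit, with 0 to 4 reads per sample, and Psmb11, the beta subunit of cortical thymic epithelium, with 0 to 3 reads per sample.

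The RNA came from donor CD4+ T cells that were sorted from the spleen or the mesenteric lymph node (mLN) of Rag2-/- mice, which lack T and B cells of their own but keep innate cells, 6 weeks after they had received naive T cells in a transfer model of colitis. Both genotypes were on the C57BL/6 background and carried Prkaa1 fl/fl alleles; Prkaa1 encodes the catalytic AMPKα1 subunit of the energy sensor AMPK. WT donors had no Cre, whereas KO donors expressed CD4-Cre, which is active from the CD4+CD8+ thymocyte stage onward and deletes the floxed part in all T cells that pass through it. The mice were 6 to 8 weeks old when used. There were 4 WT spleen, 4 KO spleen, 3 WT mLN and 4 KO mLN samples. The study had left out 1 WT mLN sample for quality, and the WT mLN samples used carry the numbers 1, 2 and 4.

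The proteasome cleaves ubiquitin-tagged proteins inside a barrel of stacked alpha and beta rings. Its constitutive beta ring carries 3 catalytic subunits, encoded by Psmb6 (beta1), Psmb7 (beta2) and Psmb5 (beta5). Interferon-gamma induces the immune counterparts Psmb9 (beta1i), Psmb10 (beta2i) and Psmb8 (beta5i), which are built into newly assembled cores in their place, and the 11S activator of Psme1 (PA28alpha) and Psme2 (PA28beta). Cells of the lymphoid lineage carry much of this immunoproteasome without added interferon. It produces many of the peptides that are loaded onto MHC class I, and proteasome activity is also needed by dividing T cells.

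Reads counted on genes ranged from 9363940 to 11283439 per sample, and levels are given as CPM, the count of a gene scaled to the same total of reads on genes in every sample. Prkaa1, the targeted gene, was at 46.3 to 54.1 CPM in WT spleen and 18.4 to 21.7 CPM in KO spleen, and at 49.0 to 60.9 CPM in WT mLN and 21.4 to 32.2 CPM in KO mLN. The groups did not overlap in either organ, and the log2 fold change of KO over WT was -1.33 in spleen (edgeR adjusted p = 7.63e-05) and -0.95 in mLN (adjusted p = 0.0372). Of the CD4 T cell markers, Cd4 lay between 996 and 1299 CPM in the 15 samples. The 5 B cell markers summed to 1.47 to 4.29 CPM in spleen and 2.40 to 8.32 CPM in mLN, where 2 of the 5 were at 0 in all samples of each genotype. The 12 myeloid and dendritic cell markers summed to 504 to 1279 CPM in spleen and 300 to 947 CPM in mLN. The 4 erythroid markers, genes of hemoglobin and heme synthesis, summed to 102.9, 80.5, 1610 and 769 CPM in WT spleen and to 18.4, 26.7 and 691 CPM in WT mLN, so that samples 3 and 4 of WT spleen and sample 4 of WT mLN stood apart. In the KO samples they summed to 15.6 to 90.7 CPM. The 2 CD8 T cell markers summed to 2.56 to 5.11 CPM in WT spleen and 1.61 to 4.34 CPM in KO spleen. In mLN they summed to 7.18 to 11.6 CPM in WT and to 18.9 to 28.2 CPM in KO. Bulk RNA does not separate fewer expressing cells from less RNA per cell.

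The most abundant of the 45 genes were the immune Psmb8 and Psme2. On a scale of CPM per kilobase of 1 transcript, averaged over the 4 groups, Psmb8 was the highest at 687 and Psme2 the next at 542, and both kept these places when the length was taken over all annotated exons. Their sample values overlapped, from 571 to 770 for Psmb8 and from 398 to 674 for Psme2. Psme1 stood at 305 (rank 4 of 45), Psmb9 at 251 (rank 6) and Psmb10 at 179 (rank 12). The other alpha subunits and non-catalytic beta subunits lay between 55.5 (Psma3) and 336 (Psma7), the 6 ATPases of the 19S cap between 60.2 (Psmc6) and 123 (Psmc4), and the 11 other 19S subunits between 48.8 (Psmd1) and 185 (Psmd4). The caps that are not induced by interferon were lower, with Psme3, a nuclear 11S activator, at 73.6 and Psme4, the PA200 activator, at 6.08. All members together took a mean of 0.766% of the reads on genes in WT spleen, 0.814% in KO spleen, 0.884% in WT mLN and 0.925% in KO mLN.

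Levels of genes with near copies are uncertain, because reads that fit several places equally well were not counted. Of the 75-base stretches of its transcript, as long as 1 read, Psmb5 shared 40% with the transcript of another gene, mostly Gm3375, and Psme2 and Psme2b shared 51.7% and 60.2% of theirs with each other. The level of Psmb5, at 31.6 CPM per kilobase beside 214 for Psmb6 and 87.1 for Psmb7, may miss reads for this reason. Psma5 shared 39.8% and Psmb3 33.1%. Psmb4, Psmb6, Psmb10 and Psma1 shared no such stretch. Exons of Psmb7 overlap those of Nek6 on the opposite strand over 11.8% of their length, those of Psmb9 overlap Tap1 over 5.79% and those of Psmb8 overlap Gm20496 over 14.7%, and whether the counts used the strand is not given in the sources used here.

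The immune genes lie in pairs in the mouse genome (GRCm38, GENCODE). Psmb9 (chromosome 17, 34181987 to 34187764, minus strand) and Psmb8 (chromosome 17, 34197721 to 34201454, plus strand) flank Tap1 (34187553 to 34197225), a peptide transporter gene, in the MHC. Psme1 (chromosome 14, 55578123 to 55581529, plus strand) and Psme2 (chromosome 14, 55587441 to 55591113, minus strand) are neighbours. Psmb10 is on chromosome 8 (105935735 to 105938444, minus strand). The constitutive Psmb5, Psmb6 and Psmb7 are on chromosomes 14, 11 and 2.

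Start site windows from RefSeq (GRCm38.p6, 250 bases before the start and 50 from it) were found for 38 of the 45 genes. Shown are those of the immune cap genes Psme1 (chr14:55578244-55578543, plus strand) and Psme2 (chr14:55591052-55591351, minus strand), of Psmb4, the member with the largest difference between organs (chr3:94886909-94887208, minus strand), and of the constitutive catalytic genes Psmb5 (chr14:54617946-54618245, minus strand) and Psmb6 (chr11:70525107-70525406, plus strand). Capitals mark letters of the interferon-stimulated response element or of the antioxidant type TGACNNNGC on either strand, 5′ to 3′ along the gene.
Psme1: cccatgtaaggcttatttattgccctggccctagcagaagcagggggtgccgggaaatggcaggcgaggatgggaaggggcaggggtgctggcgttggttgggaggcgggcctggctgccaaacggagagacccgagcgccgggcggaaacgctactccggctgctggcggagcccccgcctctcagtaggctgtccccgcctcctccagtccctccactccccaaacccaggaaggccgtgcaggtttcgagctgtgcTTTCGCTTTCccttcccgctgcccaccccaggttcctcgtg
Psme2: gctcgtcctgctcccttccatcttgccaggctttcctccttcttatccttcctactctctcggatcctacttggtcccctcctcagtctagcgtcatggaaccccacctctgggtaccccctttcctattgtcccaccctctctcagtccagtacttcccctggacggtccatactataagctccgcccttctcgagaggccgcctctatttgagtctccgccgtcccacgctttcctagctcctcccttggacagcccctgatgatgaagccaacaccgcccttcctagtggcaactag
Psmb4: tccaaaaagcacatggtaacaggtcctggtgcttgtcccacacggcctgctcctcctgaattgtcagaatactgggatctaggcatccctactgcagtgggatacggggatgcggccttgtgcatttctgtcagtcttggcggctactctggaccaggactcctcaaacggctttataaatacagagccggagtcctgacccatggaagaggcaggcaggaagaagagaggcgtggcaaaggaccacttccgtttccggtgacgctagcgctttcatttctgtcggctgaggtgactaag
Psmb5: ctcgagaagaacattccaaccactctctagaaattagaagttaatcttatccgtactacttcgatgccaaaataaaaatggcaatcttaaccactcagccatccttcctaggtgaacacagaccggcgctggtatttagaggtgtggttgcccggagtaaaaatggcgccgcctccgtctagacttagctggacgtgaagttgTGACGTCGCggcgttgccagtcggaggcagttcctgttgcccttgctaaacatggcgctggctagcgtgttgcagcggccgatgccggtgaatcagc
Psmb6: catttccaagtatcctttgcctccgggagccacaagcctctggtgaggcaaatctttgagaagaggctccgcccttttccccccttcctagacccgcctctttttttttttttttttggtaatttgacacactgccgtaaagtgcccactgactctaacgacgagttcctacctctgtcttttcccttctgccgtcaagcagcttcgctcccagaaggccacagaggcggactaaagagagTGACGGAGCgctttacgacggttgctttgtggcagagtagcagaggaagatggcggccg
The marked letters were TTTCGCTTTC at bases 10 to 19 after the start in Psme1, TGACGTCGC from base -47 to -39 in Psmb5 and TGACGGAGC from base -9 to -1 in Psmb6. The interferon-stimulated response element was in the windows of 4 of the 38 genes (10.5%), beside 3.45% of 32544 windows of all genes. The 4 were Psmb3, Psmd4, Psmd9 and Psme1, of which only Psme1 is an immune gene. A member with more than 1 window counted where any of them held the letters, whereas the share of all is per window. TGACNNNGC was in 6 of the 38 (15.8%), beside 12.4% of all windows. The interferon-gamma type TTCNNNGAA was in 2 of the 38 (5.26%), beside 8.33% of all. CCAAT was in 15 of the 38 (39.5%), beside 37.4% of all. One of the 2 with TTCNNNGAA was Psmb8 (TTCCCAGAA, bases -97 to -89), but its RefSeq start lies 405 bases from that of the GENCODE transcript used for its length. For Psme1 the starts lie 134 bases apart, so that its marked letters are placed by the RefSeq start. For Psme2, Psmb4, Psmb5 and Psmb6 they lie 14, 3, 27 and 29 bases apart, and a second RefSeq window of Psme2 is not shown.

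The constitutive catalytic genes were higher in every mLN sample than in every spleen sample of the same genotype. Psmb5 was at 20.2, 22.6, 25.8 and 22.3 CPM in WT spleen (samples 1 to 4) and at 34.5, 29.7 and 35.4 CPM in WT mLN (samples 1, 2 and 4). In KO cells it was at 21.9, 23.6, 23.5 and 27.7 CPM in spleen and at 35.3, 34.1, 31.0 and 34.2 CPM in mLN. The organs did not overlap in either genotype.

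Psmb6 was at 161, 146, 144 and 151 CPM in WT spleen and at 191, 195 and 179 CPM in WT mLN. The KO spleen samples were at 135, 145, 157 and 150.1 CPM and the KO mLN samples at 203, 197, 186 and 202 CPM. Psmb7 showed the same order of organs. It was at 89.2, 75.7, 84.0 and 77.2 CPM in WT spleen and at 109, 112 and 116 CPM in WT mLN. Its KO values were 86.5, 81.1, 98.0 and 94.1 CPM in spleen and 129.6, 114, 110.4 and 129 CPM in mLN.

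The immune catalytic genes overlapped between the organs in WT cells, where 1 spleen sample stood above the rest. Psmb8 was at 1143, 967, 1253 and 930 CPM in WT spleen and at 1212, 1126 and 1105 CPM in WT mLN. KO cells had 1061, 1038, 1167 and 1151 CPM in spleen and 1137, 1150, 1191 and 1120 CPM in mLN. The KO ranges of the organs overlapped too. Psmb9 was at 288, 278, 410 and 263 CPM in WT spleen and at 360, 334 and 346 CPM in WT mLN. Its KO values were 328, 295, 356 and 349 CPM in spleen and 379.7, 354, 367 and 365 CPM in mLN. For Psmb9, 3 of the 4 KO mLN samples lay above all KO spleen samples. Psmb10 was at 228, 193, 266 and 177 CPM in WT spleen and at 273, 234 and 235 CPM in WT mLN. The KO spleen samples were at 213, 209, 235 and 255 CPM and the KO mLN samples at 253, 237, 243 and 249.6 CPM, again with overlap.

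Of the 2 genes of the interferon-induced 11S cap, Psme1 did not overlap between the organs and Psme2 did. Psme1 was at 277, 278, 331 and 260.1 CPM in WT spleen and at 345, 359 and 367 CPM in WT mLN. Its KO values were 315, 301, 344 and 349 CPM in spleen and 408, 361, 394 and 374 CPM in mLN, so that every mLN sample exceeded every spleen sample of its genotype. Psme2 was at 485, 424, 597 and 383 CPM in WT spleen and at 520, 471 and 466 CPM in WT mLN. The KO spleen samples were at 511, 484, 648 and 645 CPM and the KO mLN samples at 562, 516, 560.3 and 589 CPM. The organs overlapped for Psme2 in both genotypes.

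**Figure D1:**
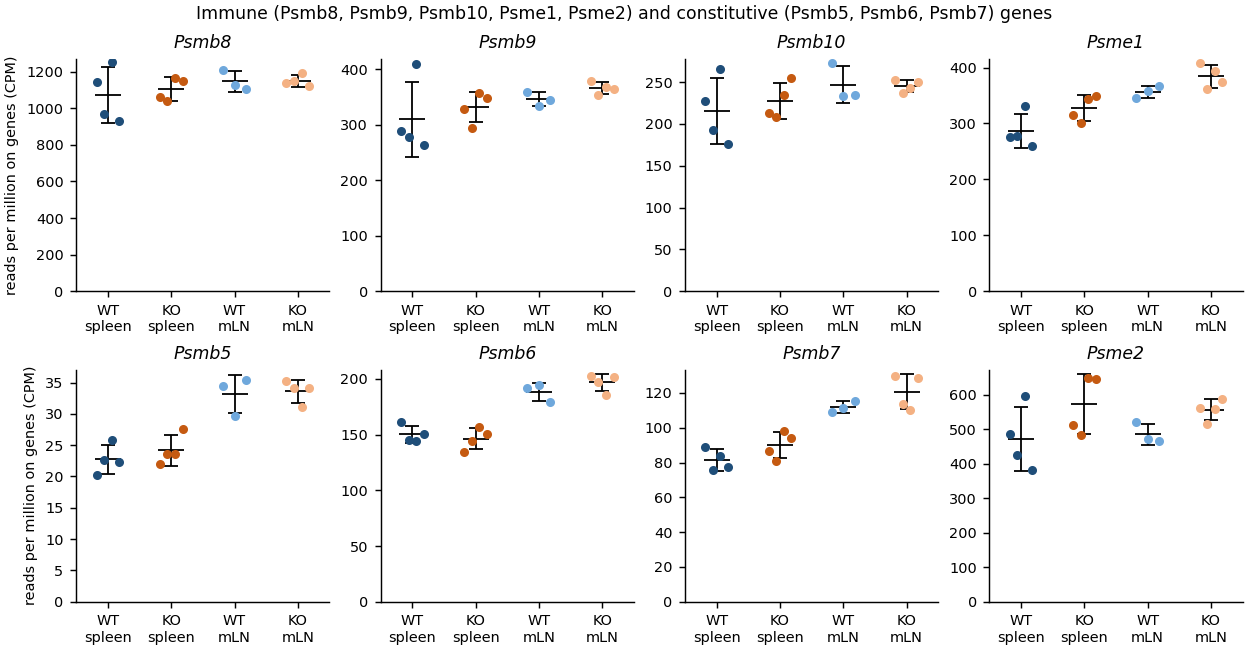
Scaled counts (CPM, vertical axis from 0) of 5 immune and 3 constitutive proteasome genes in the 4 groups. Each point is 1 sample, and bars show the mean and SD. Psmb5, Psmb6 and Psmb7 lie higher in all mLN samples than in all spleen samples of the same genotype, and WT spleen sample 3 is the highest of its group for each of the 5 immune genes.

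The WT spleen group was the most uneven one for the immune genes. The coefficient of variation of the 5 immune members ranged from 10.8% to 21.8% there (median 18.3%), beside a median of 5.32% for the other 38 members tested. In KO spleen the medians were 8.30% and 5.51%, in WT mLN 4.93% and 4.85%, and in KO mLN 2.92% and 6.96%. WT spleen sample 3 was the highest of its group for all 5 immune members, for 14 of the 38 other members, for 6 of 10 interferon-gamma signalling genes and for 8 of 11 class I loading genes. In that sample Ifng, the gene of interferon-gamma itself, was at 233 CPM, beside 31.6 to 151 CPM in the other WT spleen samples, and Irf1, a transcription factor induced by it, was at 583 CPM beside 260 to 353 CPM. It also had the highest sum of erythroid markers. Whether either has a part in its immune subunit values was not tested.

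The first question asked of the whole family was whether splenic and mLN T cells differ in proteasome expression. In WT cells 18 of the 43 tested members were higher in mLN than in spleen by edgeR's quasi-likelihood test (adjusted p under 0.05 over all genes tested), where 9.70% of all genes tested were higher, and no member was lower. This fit did not pair the samples. The log2 fold change was above 0 in 39 of 43, with a median of 0.24, beside a median of 2.74e-05 over all genes. Every WT mLN sample exceeded every WT spleen sample in CPM for 25 of 43 members, beside 13.3% of all genes tested. The 6 with the smallest p were the core genes Psmb4 (log2 fold change 0.78 ± 0.07 SE, adjusted p = 0.000279), Psmb1 (0.63 ± 0.08, adjusted p = 0.000856), Psma1 (0.67 ± 0.09, adjusted p = 0.00159) and Psmb7 (0.50 ± 0.09, adjusted p = 0.00564), the ATPase Psmc3 (0.42 ± 0.07, adjusted p = 0.00459) and the ubiquitin receptor Psmd4 (0.41 ± 0.07, adjusted p = 0.00545).

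Psmb4, which encodes a structural beta subunit, had the largest difference. It was at 109.9, 106, 109.6 and 106 CPM in WT spleen and at 179, 186 and 176 CPM in WT mLN. Its KO values were 107, 99.1, 115 and 113 CPM in spleen and 179, 178, 166 and 180.2 CPM in mLN. Psmb1, another structural beta subunit, was at 265 to 290.5 CPM in WT spleen, 402 to 424 CPM in WT mLN, 269 to 312 CPM in KO spleen and 388 to 457 CPM in KO mLN. Neither gene overlapped between the organs of a genotype.

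By role, of the 14 tested alpha and beta genes other than the immune ones, 9 were higher in WT mLN, among them all 3 constitutive catalytic genes, 3 of 4 non-catalytic beta genes (Psmb1, Psmb3 and Psmb4) and 3 of 7 alpha genes (Psma1, Psma2 and Psma6). Their median log2 fold change was 0.35. Of the 17 subunits of the 19S cap, 6 were higher (Psmc1, Psmc3, Psmc4, Psmd4, Psmd8 and Psmd13), with a median of 0.18. Of the 3 base chaperones, Psmd9 (0.43) and Psmd10 (0.30) were higher, and Psmd5 was at -0.11. The catalytic Psmb5 differed by 0.58 ± 0.13 SE (adjusted p = 0.0137) and Psmb6 by 0.36 ± 0.08 (adjusted p = 0.0112). Of the 5 immune members only Psme1 passed this unpaired test (0.35 ± 0.10, adjusted p = 0.0383). Psmb10 was at 0.23 ± 0.15 (adjusted p = 0.310), Psmb9 at 0.20 ± 0.16 (adjusted p = 0.413), Psmb8 at 0.13 ± 0.12 (adjusted p = 0.490) and Psme2 at 0.08 ± 0.15 (adjusted p = 0.765).

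Same-numbered WT samples of the 2 organs deviated together, and the paired fit changed the calls on the immune members. With the replicate number as a block, which leaves WT spleen sample 3 without a partner, 26 of 43 members were higher (14.6% of all genes), among them Psmb9 (0.38, adjusted p = 0.00268), Psmb10 (0.36, adjusted p = 0.00396), Psmb8 (0.23, adjusted p = 0.0221) and Psme2 (0.23, adjusted p = 0.0300). Without WT spleen sample 3 and with no block, Psmb9 passed (0.38, adjusted p = 0.0197), while Psmb10 (0.37, adjusted p = 0.0778), Psmb8 (0.23, adjusted p = 0.167) and Psme2 (0.23, adjusted p = 0.201) did not. Psme1 kept its call without that sample and lost it without any 1 of the other 6 WT samples (adjusted p from 0.0751 to 0.106).

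In KO cells 18 of the 43 members were again higher in mLN (11.4% of all genes tested), and none was lower. Log2 fold changes were above 0 in 37 of 43, with a median of 0.20. Every KO mLN sample exceeded every KO spleen sample for 22 members, beside 13.3% of all genes tested. The 6 with the smallest p were Psmb4 (0.70 ± 0.08 SE, adjusted p = 7.51e-05), Psmb1 (0.51 ± 0.08, adjusted p = 0.00110), Psmc3 (0.39 ± 0.06, adjusted p = 0.00114), Psma1 (0.53 ± 0.09, adjusted p = 0.00115), Psmb6 (0.43 ± 0.07, adjusted p = 0.00145) and Psma2 (0.44 ± 0.08, adjusted p = 0.00239). Psmb5 (0.48, adjusted p = 0.00995) and Psmb7 (0.42, adjusted p = 0.00646) were higher as well, so that the constitutive catalytic genes were called in both genotypes. Among the immune members Psme1 passed (0.23 ± 0.08, adjusted p = 0.0462), but not without KO spleen sample 1, 2 or 3 or KO mLN sample 1 or 3 (adjusted p from 0.0552 to 0.141), whereas Psmb9 (0.14), Psmb10 (0.11), Psmb8 (0.06) and Psme2 (-0.04) had adjusted p-values of 0.198, 0.354, 0.553 and 0.815.

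The 2 organ comparisons use separate samples. They shared 16 called members, which is 88.9% of the 18 called in each genotype. The matching share for all genes tested is not given here, so this value does not set the members apart from other genes. Psma6 and Psmd13 were called in WT only and Psma4 and Psmc6 in KO only, and none of the 4 passed the interaction test (unadjusted p from 0.270 to 0.856). The nuclear activator Psme3 (-0.08 in WT and -0.09 in KO) and the 19S scaffold subunit Psmd3 (-0.10 and -0.12) were among the few members below 0 in both genotypes, and neither passed the test.

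**Figure D2:**
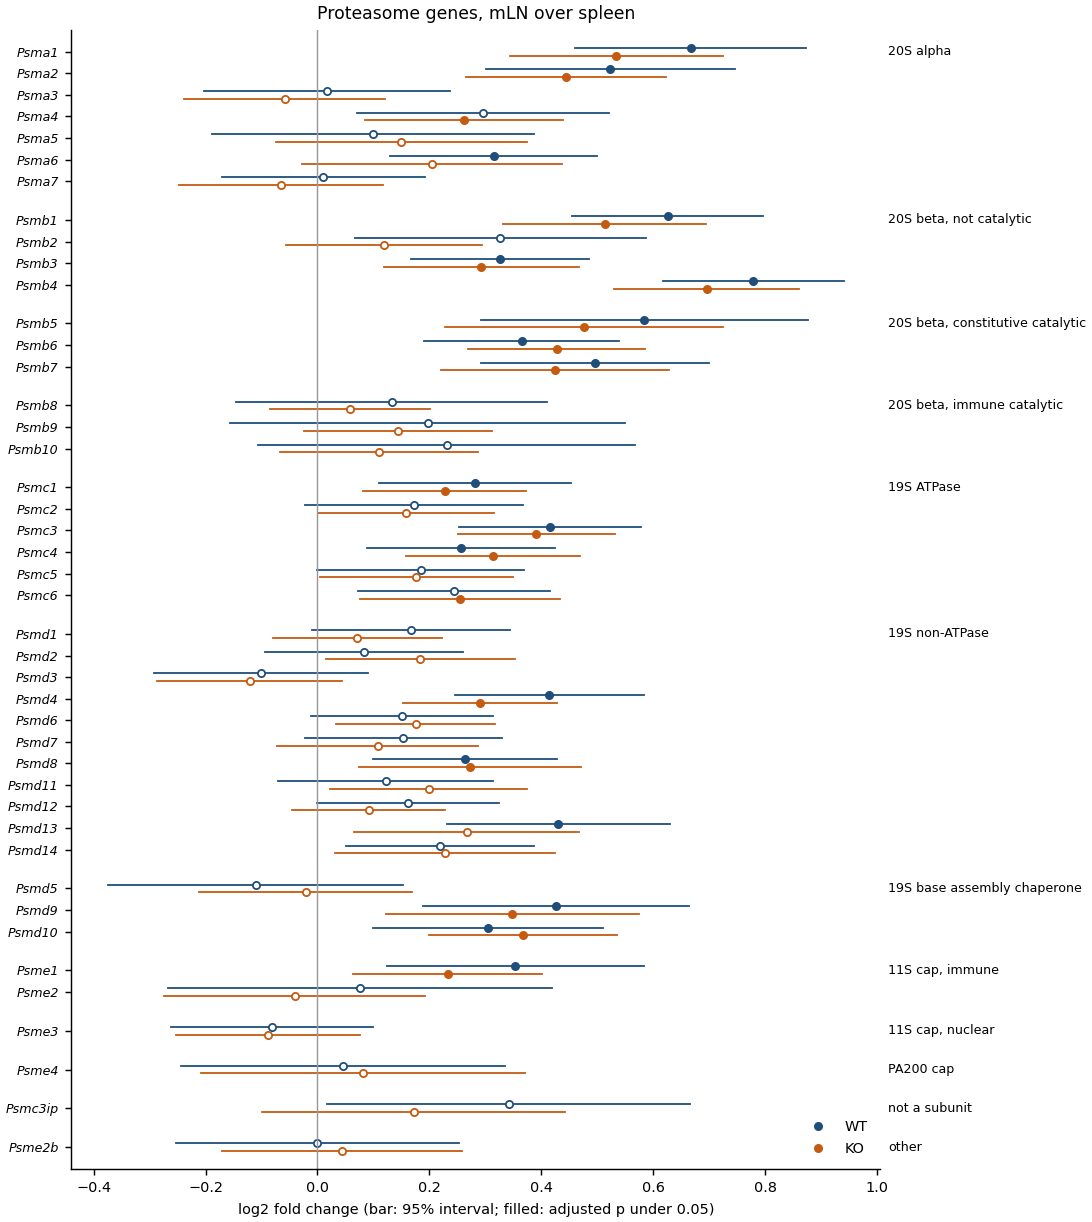
The log2 fold change of mLN over spleen (horizontal axis) for the 43 tested members, grouped by role, in WT (blue) and KO (orange) cells. Bars are 95% intervals, and filled points have an adjusted p under 0.05. The 3 constitutive catalytic genes are filled in both genotypes, and the 3 immune catalytic genes are open in both. The fits shown have no replicate block, and with it the 3 immune catalytic genes pass in WT.

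Transcript length and the share of reads off genes moved with the organ. The share of uniquely aligned reads that lay on no gene was 60.4% to 63.4% in the 8 spleen samples and 58.4% to 61.0% in the 7 mLN samples. Over all genes tested, those with a transcript of up to 1000 bases had a median log2 fold change of 0.21 in WT and 0.16 in KO, whereas those over 4000 bases had a median of -0.21 and -0.16. The members are short genes, with a median transcript of 1440 bases beside 2630 bases for all genes tested in WT. With the counts corrected for length and GC content, a step chosen after the data were seen, the median of the members fell from 0.24 to 0.10 in WT and from 0.20 to 0.06 in KO. Then 9 members were higher in WT (7.48% of all genes) and 9 in KO (10.7% of all genes), and Psma7 was lower in KO (-0.25, adjusted p = 0.0379). Of 10 CD4 T cell markers, 2 were higher in WT mLN, and 5 were higher and 1 lower in KO mLN. Of all genes tested, 9.70% were higher and 10.8% lower in WT mLN, and 11.4% were higher and 13.9% lower in KO mLN. Of the myeloid and dendritic cell markers, 1 was higher and 2 were lower in WT mLN (12 tested), and 1 was higher and 5 were lower in KO mLN (11 tested). Among the stromal markers Col1a1, a collagen gene, was lower in WT mLN (-1.90, adjusted p = 0.0361), and Myh11 (2.24, adjusted p = 0.00338) and Acta2 (1.22, adjusted p = 0.0195), genes of smooth muscle, and the endothelial Pecam1 (0.38, adjusted p = 0.0283) were higher in KO mLN. Of the stromal markers 2 were tested in WT, of which 1 was above 0 and 1 below, both with an unadjusted edgeR p under 0.05. In KO 4 were tested, of which 3 were above 0 and 1 below. The 5 stromal markers summed to 66.5 to 110 CPM in spleen and 99.9 to 135 CPM in mLN. The CD8 T cell marker Cd8a (4.43, adjusted p = 3.18e-05) and the B cell marker Pax5 (1.66, adjusted p = 0.0325) were higher in KO mLN as well. No NK cell or erythroid marker passed. With the replicate block, where 14.6% of all genes were higher in WT mLN, 6 CD4 T cell markers were higher there. Then 2 myeloid and dendritic cell markers were higher and 3 lower, and 2 erythroid markers were lower. The part of these markers in the members' differences was not tested.

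The members that kept their call in both genotypes under this correction were Psmb4, Psmb1, Psma1, Psma2, Psmc3, Psmd4, Psmb5 and Psmd9. Psmb4 was then at 0.57 in WT (adjusted p = 0.00171) and 0.52 in KO (adjusted p = 0.000420), and Psmb5 at 0.48 (adjusted p = 0.0376) and 0.44 (adjusted p = 0.0162). Psmb6 kept its call in KO (0.36, adjusted p = 0.00288) and had an adjusted p of 0.104 in WT. Psmb7 and Psme1 no longer passed in either genotype. With the correction and the replicate block together, Psme1 (0.27, adjusted p = 0.0143), Psmb10 (0.26, adjusted p = 0.0188) and Psmb9 (0.24, adjusted p = 0.0240) passed in WT, while Psmb8 (0.15, adjusted p = 0.114) and Psme2 (0.01, adjusted p = 0.911) did not. Left-out samples also moved the counts. They fell to 11 members without WT spleen sample 1 or WT mLN sample 4 in WT, and to 11 without KO spleen sample 1 or 2 in KO.

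**Figure D3:**
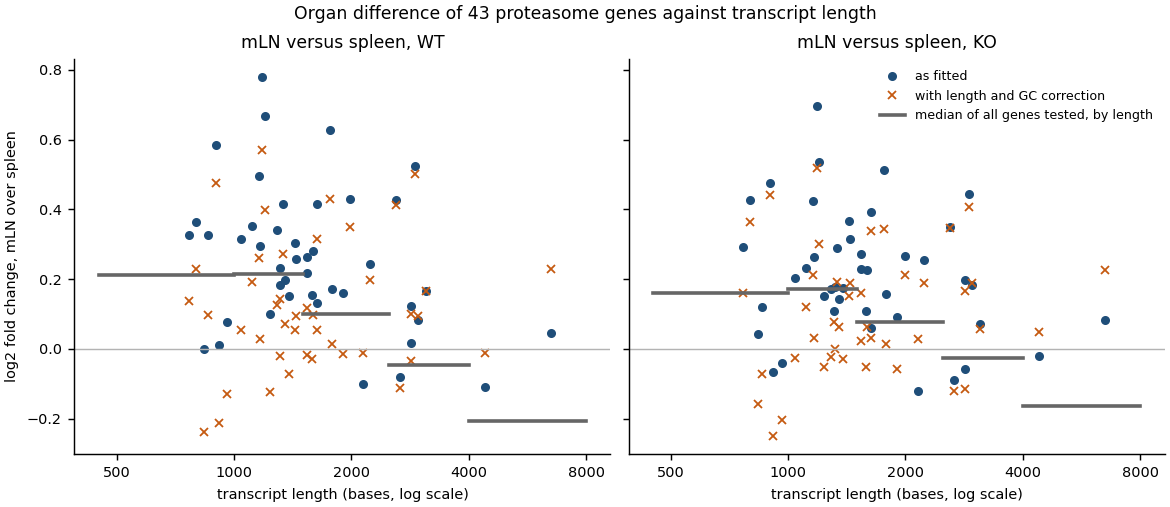
The log2 fold change of mLN over spleen (vertical axis) of the 43 members against transcript length (horizontal log axis), in WT and KO cells, as fitted (blue points) and with the length and GC correction (orange crosses). Grey lines give the median of all genes tested in 5 ranges of length, from 0.21 in the shortest to -0.21 in the longest range in WT.

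The ratio of an immune catalytic gene to the constitutive gene that it replaces needs no scaling between samples. It does keep the trend of organ differences with transcript length given above, by which short transcripts were higher in mLN. In each pair the immune transcript is the longer one. The lengths are 1628 and 899 bases for Psmb8 and Psmb5, 1352 and 798 for Psmb9 and Psmb6, and 1311 and 1160 for Psmb10 and Psmb7. The ratio of Psmb8 to Psmb5, per length, was 23 to 31.2 in WT spleen, 17.2 to 20.9 in WT mLN, 22.9 to 27.3 in KO spleen and 17.8 to 21.2 in KO mLN. In both genotypes every mLN sample was thus below every spleen sample. The mean log2 ratio differed by -0.44 in WT (n = 4 and 3) and by -0.42 in KO (n = 4 and 4), each with an exact two-sided permutation p of 0.0286, the smallest that these samples allow, and 0.0857 after adjustment over the 12 ratio tests. The height of this ratio depends on how many reads of Psmb5 were lost to its near copies.

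The other ratios were closer to 1. The ratio of Psmb9 to Psmb6, per length, was 1.03 to 1.68 in WT spleen, 1.01 to 1.14 in WT mLN, 1.20 to 1.44 in KO spleen and 1.06 to 1.17 in KO mLN. The mean log2 ratio differed between the organs by -0.28 in KO (exact permutation p = 0.0286, adjusted 0.0857) and by -0.14 in WT (p = 0.743 by the same exact test, adjusted 0.857). The ratio of Psmb10 to Psmb7 was 2.02 to 2.80 in WT spleen, 1.80 to 2.22 in WT mLN, 2.12 to 2.40 in KO spleen and 1.71 to 1.95 in KO mLN. It differed by -0.31 in KO (exact permutation p = 0.0286, adjusted 0.0857) and by -0.25 in WT (exact permutation p = 0.143, adjusted 0.343). All 6 organ differences had the same sign, and none passed the adjusted test. The ratios were not corrected for the length trend, and its part in them was not tested. With the length and GC correction the median organ difference in WT went from 0.50 to 0.26 for the constitutive catalytic genes. For the immune catalytic genes it went from 0.20 to 0.07. In KO these medians went from 0.43 to 0.36 and from 0.11 to 0.06. With 0.0286 as the smallest p, that limit is met only where most of the 12 ratio tests reach it. With the WT samples paired by number, the 3 pairs gave mean differences of -0.42 for Psmb8 to Psmb5, 0.02 for Psmb9 to Psmb6 and -0.16 for Psmb10 to Psmb7, and 3 pairs allow no exact p under 0.25.

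**Figure D4:**
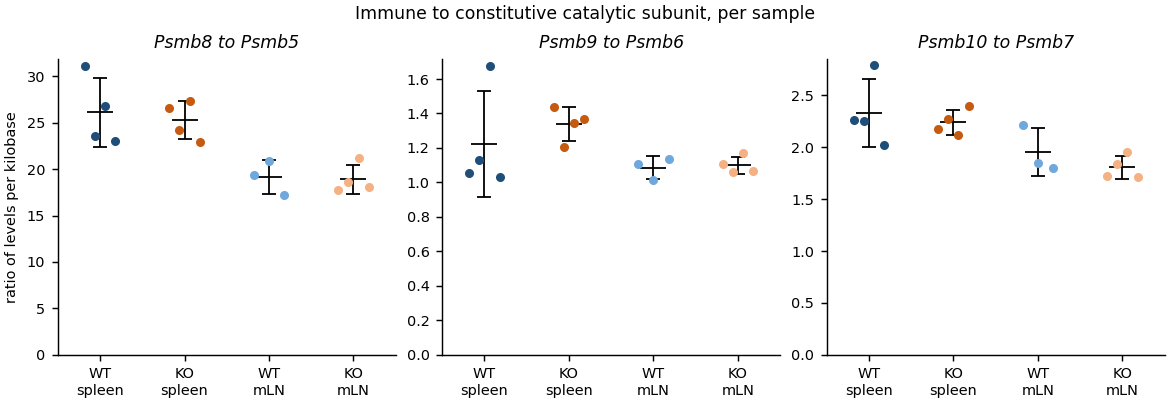
Ratio of the level per kilobase of the immune to that of the constitutive catalytic gene (vertical axis from 0) in each sample of the 4 groups, with the mean and SD as bars. The ratio of Psmb8 to Psmb5 lies at 17.2 to 21.2 in the mLN samples and at 22.9 to 31.2 in the spleen samples.

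Genes that build or control the proteasome were described from a list of 29 genes, of which 28 were tested. In WT cells 9 were higher and 3 lower in mLN, where 9.70% of all genes tested were higher and 10.8% lower. In KO cells 6 were higher and 7 lower, beside 11.4% and 13.9% of all genes. With the replicate block 12 were higher and 7 lower in WT, and 6 were higher and 8 lower in KO. Among the higher ones were the core assembly chaperones Psmg1 (0.49 in WT, adjusted p = 0.0181, and 0.42 in KO, adjusted p = 0.00609), Psmg2 (0.44, adjusted p = 0.00730, and 0.39, adjusted p = 0.0343) and Psmg3 (0.75, adjusted p = 0.0189, and 0.63, adjusted p = 0.0218), and in WT Psmg4 (0.60, adjusted p = 0.0111). Nfe2l2, the gene of the oxidative stress factor NRF2, was higher by 0.59 in WT (adjusted p = 0.0103) and 0.52 in KO (adjusted p = 0.00106). Nfe2l1, the gene of NRF1, a factor known to induce proteasome subunits when proteasome activity is low, was lower by -1.04 in WT (adjusted p = 0.00101) and -0.88 in KO (adjusted p = 9.38e-05). Ddi2, the protease that activates NRF1, was lower as well (-0.32, adjusted p = 0.0415, and -0.37, adjusted p = 0.0374).

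Rad23b, a shuttle factor that brings ubiquitin-tagged proteins to the proteasome, was lower in mLN (-0.35 in WT, adjusted p = 0.0227, and -0.38 in KO, adjusted p = 0.00160). In KO mLN Ubqln2 (-0.63, adjusted p = 0.00302) and Ubqln4 (-0.73, adjusted p = 0.00524) were lower, as were Zfand5 (-0.25, adjusted p = 0.0390) and Ecpas (-0.33, adjusted p = 0.0412). Uchl5, a deubiquitinase of the 19S cap, was higher in both genotypes (0.39, adjusted p = 0.0300, and 0.31, adjusted p = 0.0289). Sem1, a small 19S subunit (0.31, adjusted p = 0.0387), and Psmf1, an inhibitor of the core (0.31, adjusted p = 0.0430), were higher in WT mLN. With the length and GC correction 4 of the list were higher and 1 lower in WT, and 3 were higher and 4 lower in KO. Nfe2l1 (-0.83 and -0.70), Nfe2l2 (0.52 and 0.45) and Psmg3 (0.63 and 0.58) still passed in both genotypes, whereas Psmg1, Psmg2 and Ddi2 did not.

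Of 10 genes of interferon-gamma signalling, 1 was higher and 1 lower in mLN in WT cells, and 1 was higher and 3 lower in KO cells. The shares of all genes tested were the 9.70% and 10.8% given above in WT, and 11.4% and 13.9% in KO, and the replicate block left these counts as they were. Nlrc5, a transactivator of class I genes and of the immunoproteasome, was lower in mLN by -0.79 in WT (adjusted p = 0.00799) and -0.69 in KO (adjusted p = 0.000170). With the length and GC correction it was at -0.53 in WT (adjusted p = 0.0613) and -0.46 in KO (adjusted p = 0.00108). In KO cells Ifng (-0.78, adjusted p = 0.0220) and Irf1 (-0.34, adjusted p = 0.0241) were lower and Socs1, an inhibitor of cytokine signalling, was higher (0.60, adjusted p = 0.000169). Ifngr1, a chain of the interferon-gamma receptor, was higher in WT mLN (0.53, adjusted p = 0.00381). Of 11 class I peptide loading genes, 1 was higher in WT mLN and 2 in KO mLN, and none was lower. B2m, the light chain of class I, was higher in both genotypes (0.50, adjusted p = 0.0297, and 0.46, adjusted p = 0.00285), and Canx, a chaperone, in KO (0.22, adjusted p = 0.0299). With the replicate block 4 were higher in each genotype, namely B2m, Canx and the chaperone genes Calr and Pdia3. With the length and GC correction B2m was at 0.22 in WT (adjusted p = 0.305) and 0.22 in KO (adjusted p = 0.0421).

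The second question was whether the loss of AMPKα1 changed proteasome expression. In spleen no member passed the test in edgeR or in DESeq2, beside 1.30% of all genes tested, and 3 of 43 had an unadjusted p under 0.05, beside 20.5% of all genes. The 3 were Psmd7, a 19S subunit (log2 fold change of KO over WT 0.23 ± 0.07 SE, adjusted p = 0.114), the ATPase Psmc5 (0.18 ± 0.07, adjusted p = 0.172) and the alpha subunit Psma3 (0.21 ± 0.08, adjusted p = 0.179). Psmd7 was at 120, 129, 121 and 114 CPM in WT spleen and at 132, 138, 153 and 139 CPM in KO spleen, with no overlap. Every KO sample was above every WT sample for 6 of 43 members, beside 5.68% of all genes tested, and below for none. The log2 fold change was above 0 in 39 of 43, with a median of 0.08 beside -0.004 for all genes tested.

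The 5 immune genes were above 0 in spleen, and none passed the test. Psme2 was at 0.29 (95% interval -0.06 to 0.64, adjusted p = 0.335) and Psme1 at 0.21 (-0.01 to 0.42, adjusted p = 0.272), and the 3 immune catalytic genes lay between 0.05 and 0.11. Without the filter on low counts Psme2 passed (0.31, adjusted p = 0.0256). The constitutive catalytic genes were at 0.10 for Psmb5, -0.02 for Psmb6 and 0.16 for Psmb7, with adjusted p-values of 0.664, 0.895 and 0.365. The upper ends of the 95% intervals of all 43 members did not exceed 0.64, which is that of Psme2, and the lower ends did not go below -0.33, which is that of Psme4.

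In mLN no member passed the test either in edgeR or in DESeq2, beside 0.641% of all genes tested, and 1 had an unadjusted p under 0.05, beside 15.7% of all genes. It was Psme2 (0.19 ± 0.08 SE, adjusted p = 0.301), followed by Psmd7 (0.20 ± 0.10, adjusted p = 0.349) and the alpha subunit Psma4 (0.16 ± 0.08, adjusted p = 0.371). Psmd7 was at 133, 125 and 135 CPM in WT mLN and at 134, 145, 162 and 165 CPM in KO mLN, where 1 KO sample lay within the WT range. Every KO sample was above every WT sample for 4 of 43 members, beside 7.49% of all genes tested. Log2 fold changes were above 0 in 31 of 43, with a median of 0.07. Psmb8 was at -0.01 (95% interval -0.16 to 0.14), Psmb9 at 0.07 (-0.10 to 0.24) and Psmb10 at -0.02 (-0.21 to 0.18).

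**Figure D5:**
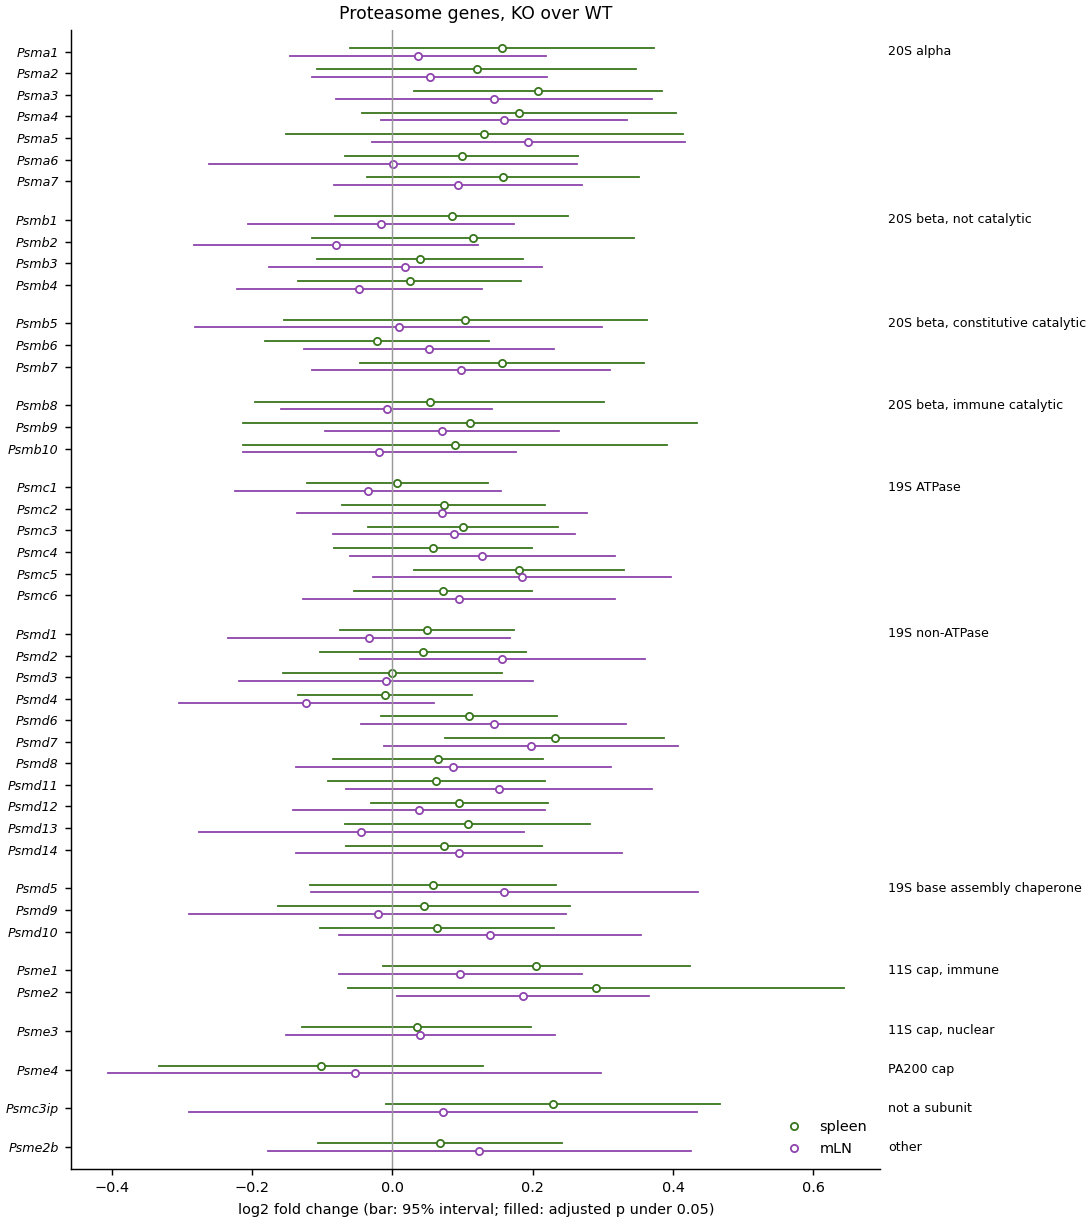
The log2 fold change of KO over WT (horizontal axis) for the 43 tested members, grouped by role, in spleen (green) and mLN (purple). Bars are 95% intervals. No point is filled, since none had an adjusted p under 0.05, and 39 points in spleen and 31 in mLN lie above 0.

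None of the immune to constitutive ratios passed a test between the genotypes. The differences of KO from WT in the mean log2 ratio were -0.04 for Psmb8 to Psmb5, 0.16 for Psmb9 to Psmb6 and -0.05 for Psmb10 to Psmb7 in spleen, with exact permutation p-values of 0.771, 0.4 and 0.771. In mLN they were -0.02, 0.02 and -0.11, with exact permutation p-values of 0.857, 0.800 and 0.314. Of the interferon-gamma genes, Ifngr1 was lower in KO than in WT in both organs (-1.01 in spleen, adjusted p = 0.00245, and -1.12 in mLN, adjusted p = 0.0326), and it was the only one of the 10 to pass. None of the 28 assembly and regulation genes and none of the 11 class I loading genes passed in edgeR, where 8 and 0 in spleen and 4 and 0 in mLN had an unadjusted p under 0.05. None of the 4 erythroid markers passed either, but all 4 had an unadjusted p under 0.05 in both organs, with a median log2 fold change of -3.45 in spleen and -2.56 in mLN. No myeloid or dendritic cell marker passed (12 tested in spleen, 11 in mLN). Of these, 7 in spleen and 2 in mLN had an unadjusted edgeR p under 0.05, beside 20.5% and 15.7% of all genes tested. In spleen 9 were above 0 and 3 below (median 0.66), and in mLN 7 were above and 4 below (median 0.23). Of the stromal markers, Acta2 was higher in KO cells in spleen (1.60, adjusted p = 0.0448) and in mLN (2.67, adjusted p = 0.0326). Myh11 was higher in KO mLN (4.63, adjusted p = 0.0326), as was the B cell marker Pax5 (4.40, adjusted p = 0.0372). Of the B cell markers 2 were tested in mLN, of which 1 was above 0 and 1 below (median 1.84). The 5 B cell markers summed to 2.40 to 7.51 CPM in WT mLN and to 3.12 to 8.32 CPM in KO mLN. The 1 B cell marker tested in spleen was at -0.33 and did not pass. In spleen 3 stromal markers were tested, of which 1 was above 0 and 2 below (median -0.32). All 3 had an unadjusted edgeR p under 0.05. In mLN 4 stromal markers were tested, of which 3 were above 0 and 1 below (median 1.59). No CD8 T cell marker passed. In mLN 2 were tested, of which 1 was above 0 and 1 below (median 0.93), and 1 had an unadjusted edgeR p under 0.05. Their sums were 7.18 to 11.6 CPM in WT mLN and 18.9 to 28.2 CPM in KO mLN. The 1 CD8 T cell marker tested in spleen was at -0.62. The part of all these markers in the members' values was not tested.

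Whether the effect of the genotype differed between the organs was tested as the interaction over all 15 samples. No member passed in edgeR or in DESeq2 (0% of all genes tested in edgeR), and none of the 43 had an unadjusted p under 0.05, beside 4.22% of all genes. The smallest p belonged to Psmb2, a non-catalytic beta subunit (difference of log2 fold changes -0.20, 95% interval -0.50 to 0.11, edgeR adjusted p = 0.9998). For the immune catalytic genes the differences were -0.06 for Psmb8, -0.04 for Psmb9 and -0.11 for Psmb10, with intervals that reached from -0.49 to 0.34.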

How the data were processed

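mRNA of sorted T cells was sequenced as 75-base single-end reads. The authors aligned them with STAR 2.6.1a to GRCm38 with GENCODE M23 and deposited raw counts of reads per gene, without normalization. RSEM and DESeq2 1.22.2 are also named in the submitters' processing notes. Reads that align to several places were not counted, and reads carry no molecular identifiers. Samples were grouped by genotype and organ from the labels, and the study describes 1 experiment with 4 mice in each group. P-values and the intervals of log2 fold changes thus measure the spread between the mice of that experiment. No 2 samples agreed within sampling noise.

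Symbols, positions, lengths and GC content came from GENCODE M21, where 55240 of the 55421 genes were found. Lengths are those of 1 transcript per gene. CPM is the count divided by the reads on genes and scaled to 1 common total. Each pair of groups, and the interaction over all 15 samples, was fitted with edgeR 4.0.16 in R 4.3.3 (filterByExpr, TMM, quasi-likelihood test), with Benjamini-Hochberg adjustment over all genes tested and a limit of 0.05. The ratios used counts plus 0.5. Per-length ratios were divided by transcript length. Python 3.11.15, numpy 2.4.6, pandas 2.3.3 and scipy 1.17.1 served for the rest. The fits were tested on simulated data.

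The members and lists were chosen with earlier results of these data known. Named are the 5 immune and 3 constitutive catalytic genes, in each comparison the members past the limit (the 6 with the smallest p where more pass, the 3 smallest where none passes), and the list genes past the limit, of which some are not reported here. The sample values of Psmb4, Psmb1 and Psmd7, the values of Psme3, Psmd3, Psmd5, Psma7 and Psme4 and the promoters were chosen after their values were seen. Alternatives were DESeq2 1.42.0, RLE in place of TMM or neither, all genes kept whatever their counts, a minimum of 10 counts in each sample, a joint fit of the 15 samples, a block for the replicate number, a log2 fold change limit of 1, a pseudocount of 5 for the ratios, and single samples left out. The length and GC correction was added after the data were seen.

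Whether same-numbered samples are paired was checked by the correlation of their deviations from the group means over 15438 genes. Between the organs of WT it was 0.243 to 0.291 in the 3 pairs and -0.198 to 0.032 in the other combinations. The main fits paired no samples, and for WT the fit with the pairs as a block is given beside them. Between the organs of KO it was 0.026 to 0.259 in the 4 pairs and -0.171 to 0.103 in the other combinations. Whether same-numbered KO samples share a mouse is not known from the labels.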

Additional observations from a re-analysis of the deposited data

Results flagged for a closer look

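In 60 groups of 4 samples (single genes, ratios and summed roles), 2 values lay apart from the other 3 by Dixon's test at the 95% level, where chance gives about 1 in 20. The ratio of Psmb9 to Psmb6, per length, was 1.68 in WT spleen sample 3, beside 1.03 to 1.13 in the other WT spleen samples. The summed level of Psme1 and Psme2 was 876 CPM in KO mLN sample 2, beside 954 to 970 CPM in the other KO mLN samples.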

How the results depend on the processing

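The counts of members called between genotypes and for the interaction were 0 under every alternative run, except that the fit without a filter on low counts called 1 member in spleen (Psme2). Between organs, the length and GC correction gave 9 members in WT and 10 in KO (10 also with the replicate block), a minimum absolute log2 fold change of 1 gave 0 in both, and leaving out 1 sample gave 11 to 20 in WT and 11 to 17 in KO. The replicate block gave 26 members in WT and 18 in KO (17 of the 18 shared with the unblocked fit). The labels do not say whether same-numbered samples share a mouse. The length and GC correction with the replicate block gave 13 in WT. The block changed no other count of members called. Of the lists it raised the counts of WT organ calls from 12 to 19 for assembly and regulation, from 1 to 4 for class I loading, from 2 to 6 for CD4 T cell markers and from 3 to 5 for myeloid markers. DESeq2, RLE, no TMM factor, no filter and the minimum of 10 counts gave 15 to 18 in WT and 13 to 19 in KO, and all samples in a joint fit 21 in both. In the fits by DESeq2 and without a filter the median of all genes moved to -0.26 in WT between organs and the median of the members was 0.23. No called direction reversed. None of the 12 ratio tests passed under the larger pseudocount, the paired test or any left-out sample, but these settings left little room to pass. The paired test allows no p under 0.125 with 4 pairs or 0.25 with 3. The exact permutation test allows none under 0.0286, also with a sample left out. Adjusted over 12 tests, that value passes only where most of them reach it. Between genotypes the correlations of same-numbered samples were -0.210 to 0.146 in spleen and -0.053 to 0.003 in mLN. The cause of the changes was not tested. At 9363940 or more reads on genes per sample, Psma8 and Psmb11 were too low to be tested.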

Other observations

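WT spleen sample 3, which had the highest immune subunit values of its group, had the highest level of 6 of the 10 interferon-gamma signalling genes, among them Ifng, Irf1, Irf8, Nlrc5 and Socs1. Tap1, the gene between Psmb9 and Psmb8, was at 799 CPM there, beside 461 to 591 CPM in the other WT spleen samples. The sums of the 11 class I loading genes were 23477 CPM in that sample and 18324 to 20557 CPM in the others.

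WT spleen sample 4 was at the other end. It had the lowest Psmb8, Psmb9, Psmb10, Psme1 and Psme2 of its group and was also the lowest for 15 of the 38 other members tested, and the 45 members together summed to 7118 CPM in it, beside 7475 to 8279 CPM in the other samples. Its Ifng level of 31.6 CPM was the lowest as well. These are single samples, and no test was made.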
